A study of Mus musculus with 4 samples.

Results

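Choroid plexus epithelium was followed here as the nuclei whose transcripts mark it in a hippocampal single-nucleus data set of mice. A barcode was taken when it held at least 20 UMIs (unique molecular identifiers, each standing for 1 counted transcript) of Ttr and at least 2 summed UMIs of 6 further genes, Folr1, Kl, Clic6, Slc4a5, Kcnj13 and Otx2. Barcodes with fewer than 200 genes, or with more than 5% of UMIs from mitochondrial genes, were left out first. The rule selected 70 of 19475 barcodes that passed the limits on genes and mitochondrial UMIs. All 7 genes and the cut-offs were chosen with results of these data known, so levels of the 7 genes in the selected nuclei are a description and support nothing else.

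The nuclei came from frozen hippocampi of B6 mice aged 9 months, pooled within a genotype and read with the 10x 3′ chemistry as 1 library per genotype. WT pooled 7 hippocampi, EKO 7, P301S 8 and P301S/EKO 7. EKO is the Apoe knock-out and P301S a transgene of human tau with the P301S change. The labels name neither the transgene's promoter nor the line, nor the sex of the mice. The study concerns neurodegeneration with tau and apoE, and of its 6 genotypes 4 were analysed here. The libraries held 3156 to 6767 barcodes and 8369762 to 14251675 UMIs. Each genotype has 1 pool, so differences between genotypes below were not checked on replicates, and intervals (95%) cover counting error only.

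The choroid plexus is a folded tissue in the brain ventricles whose epithelium makes cerebrospinal fluid and forms the barrier between blood and that fluid. Its cells move ions, water, folate and other nutrients, and secrete transthyretin, the product of Ttr, which carries thyroid hormone and, with retinol-binding protein, vitamin A. OTX2, a homeobox transcription factor, is active in this epithelium from development into adult life. The tissue lies in the lateral ventricle beside the hippocampus but is no part of it.

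Selected nuclei were found in 3 of the 4 libraries, and most were in P301S. WT held 10 of 5505 kept barcodes (0.182%, exact Clopper-Pearson interval 0.0871% to 0.334%). P301S held 46 of 2934 (1.57%, 1.15% to 2.09%) and P301S/EKO 14 of 5576 (0.251%, 0.137% to 0.421%). EKO held 0 of 5460, which allows a share of up to 0.0549% (3 nuclei of the total), or up to 0.0675% by the exact interval used for the other libraries. The P301S share lay above the others and its interval overlapped none of them, while the intervals of WT and P301S/EKO overlapped. Relative to WT the share in P301S was 8.63-fold (4.30 to 19.2), and P301S/EKO over WT stood at 1.38 (0.571 to 3.48). Each share is that of 1 pool. How much choroid plexus came along with the dissected hippocampi is not recorded in the labels and cannot be told apart from genotype.

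**Figure D1:**
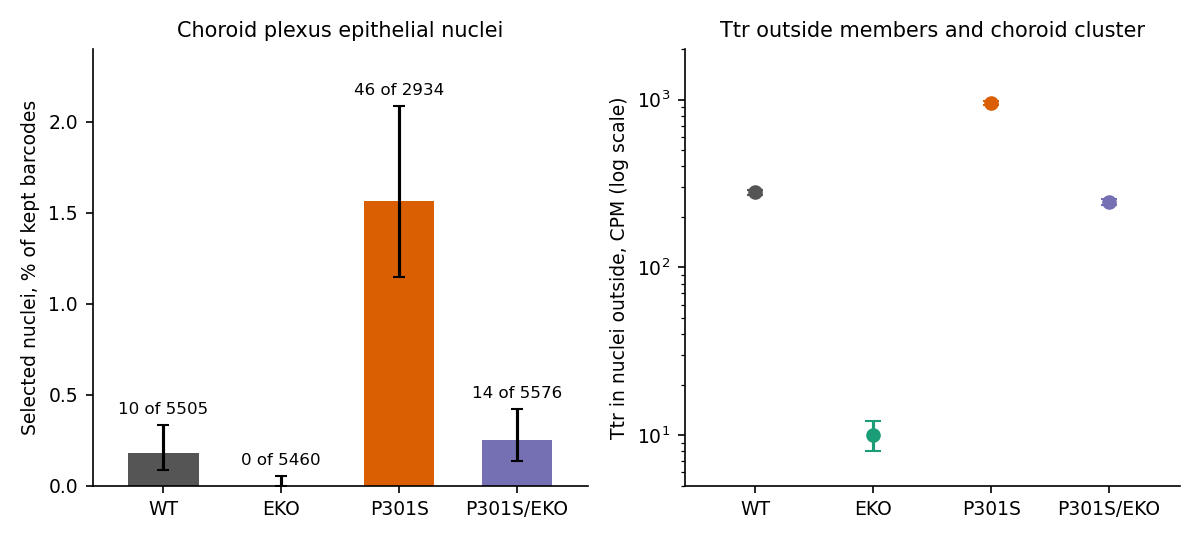
Left, selected nuclei as a percentage of kept barcodes in each library, with exact 95% intervals (for EKO the limit that a count of 0 allows) and the counts above the bars. Right, Ttr in nuclei outside the selection and the choroid cluster, in counts per 1000000 UMIs (CPM) on a log axis with exact Poisson intervals; P301S is highest on both sides and EKO lowest.

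Depth per nucleus differed between the libraries and between selected and other nuclei. The median selected nucleus held 2932.5 UMIs in WT, 1634.5 in P301S and 1398.5 in P301S/EKO, beside 1940, 2177 and 1447.5 in the other nuclei and 1469 in EKO. In P301S, the library with the most selected nuclei, these were thus shallower than the rest. With barcodes of at least 1100 UMIs alone, 43 nuclei were selected in P301S, 10 in WT, 9 in P301S/EKO and 0 in EKO. Of the barcodes shared by name between pairs of libraries (19 to 69 a pair), 1 belonged to a selected nucleus, and its namesake in the other library held 1 Ttr UMI.

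The label was checked with genes that the rule did not use. All kept barcodes were clustered with Ttr, the 6 other rule genes, Apoe, Prnp and Mapt left out, and 60 of the 70 selected nuclei fell into 1 of 18 clusters. That cluster had 77 nuclei, of which 49 came from P301S, 16 from P301S/EKO, 12 from WT and 0 from EKO. Its leading genes were Col9a3, Slc16a8, Sostdc1, Enpp2 and Rbm47. Of the choroid plexus epithelium markers 9 stood above the other clusters, with a mean log2 fold of 4.80, beside 1.58 for fibroblast markers, the next set. The 17 cluster nuclei that the rule missed held 55 to 152 Ttr UMIs and 0 or 1 UMI of the 6 genes.

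The other 10 selected nuclei lay in clusters of other types: 7 in the microglia-like cluster (6 from P301S and 1 from P301S/EKO), 1 each in the astrocyte-like and endothelial cell-like clusters, and 1 in a cluster without a name. They were larger and held relatively less Ttr, with a median of 4210.5 UMIs against 1456 for the 60, and with Ttr at 2.06% of UMIs against 7.15%. Summed microglial markers stood at 3229 CPM in the 10 and at 396 CPM in the 60. Of 8 markers of ependymal cells, which line the ventricles, Ccdc153, Tmem212, Dnah12, Hydin and Cfap54 had 0 UMIs in the 70, and all 8 summed to 61.2 CPM. Of the 10, 7 came from P301S (median 5142 UMIs, against 1494 for its nuclei in the choroid cluster). P301S/EKO gave 3 (2793 against 1145) and WT 0. Levels below are sums of UMIs, so these deeper nuclei weigh more in P301S and P301S/EKO than their number, and not in WT. Results below are for all 70. Where a named gene was not called in the 60 nuclei of the choroid cluster alone, this is said beside it, and the counts of calls are given for both.

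Near the cut-offs the selected nuclei stood clear on Ttr and less so on the 6 genes. One nucleus with at least 2 UMIs of the 6 genes held 10 to 19 Ttr UMIs (it had 11), 5 held 5 to 9 and 31 held 0 to 4, of which 8 were in EKO. None of these nuclei was in the choroid cluster. Just inside, 6 selected nuclei held 20 to 49 Ttr UMIs, the lowest 27. On the other limit, 21 selected nuclei held exactly 2 UMIs of the 6 genes, 17 nuclei with at least 20 Ttr UMIs held 1, and 26 held 0. Of 36 nuclei with at least 20 Ttr UMIs outside the choroid cluster, 19 were microglia-like, 25 came from P301S and 0 from EKO.

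Ttr dominated these nuclei but varied widely among them. Ttr (chromosome 18, 20665280 to 20674321, plus strand, GRCm38) reached a lowest, median and highest count per selected nucleus of 44, 171 and 709 in WT. The counts were 27, 96.5 and 1051 in P301S, and 50, 157.5 and 329 in P301S/EKO. As a share of the nucleus's UMIs, Ttr ranged from 0.860% to 36.8% in WT, 0.362% to 43.7% in P301S and 0.900% to 41.4% in P301S/EKO, with medians of 7.43%, 5.65% and 11.9%. The 3 ranges overlapped almost throughout. Summed over selected nuclei Ttr stood at 77802, 61249 and 92184 CPM in the same order.

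**Figure D2:**
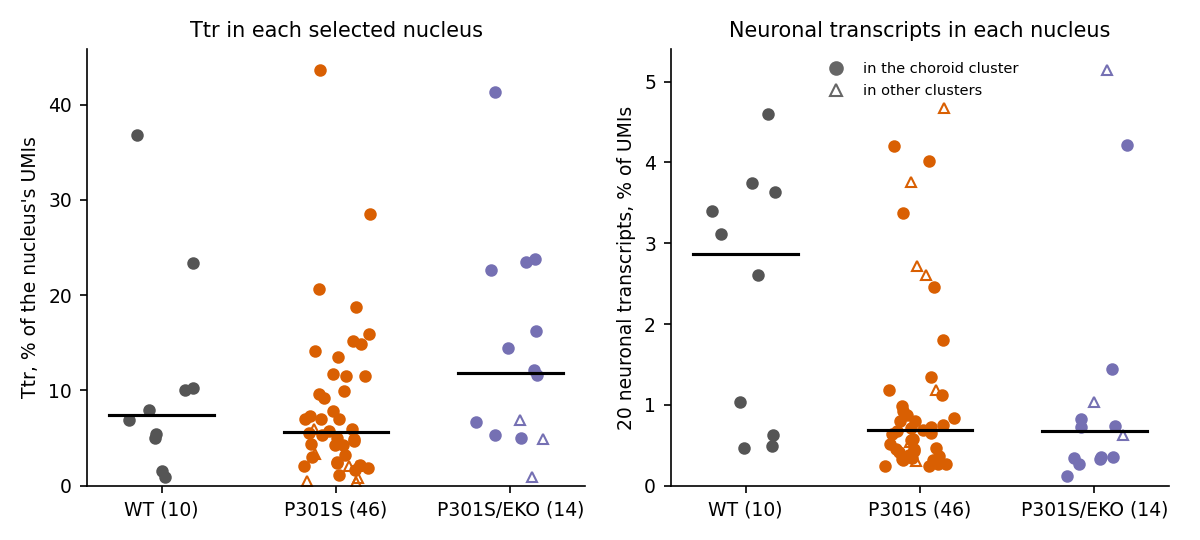
Each point is 1 selected nucleus; left, Ttr as a percentage of its UMIs, right, the summed 20 neuronal transcripts as a percentage, with bars at the library medians, filled points in the choroid cluster and open triangles in other clusters. Ttr ranges overlap between libraries, and the WT nuclei have the highest median neuronal share (2.86%).

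The 6 other rule genes were detected unevenly, as their low counts allow. Kcnj13, a potassium channel of the ventricular face (chromosome 1, 87386363 to 87394729), had a UMI in 49 of the 70 nuclei, Kl, which encodes klotho, in 39, and Folr1, the folate receptor (chromosome 7, 101858331 to 101870788), in 34. Otx2 had one in 26, the chloride channel gene Clic6 in 18 and the sodium bicarbonate carrier gene Slc4a5 in 10. Slc4a5 had no UMI in the 14 P301S/EKO nuclei. Folr1 was found in 60.0%, 47.8% and 42.9% of selected nuclei in WT, P301S and P301S/EKO, and in 0.182%, 1.39% and 0.216% of the other nuclei. Kcnj13 was found in 60.0%, 69.6% and 78.6%, against 1.31%, 2.63% and 0.755%. In EKO, without a selected nucleus, 0.0733% of nuclei held Folr1 and 0.751% Kcnj13.

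Against the other nuclei of the same library, the selected nuclei were set apart by transport, secretion and epithelial genes. For each gene the UMIs seen in the selected nuclei were divided by those expected from the other nuclei of WT, P301S and P301S/EKO, given the same total; a gene was called when its exact Poisson interval lay wholly beyond 2-fold, on at least 20 observed or expected UMIs. Of 1682 genes with enough UMIs, 114 were higher (6.78%) and 16 lower (0.951%). Of these, 96 and 9 were also at least 2-fold the same way in each of the 3 libraries. The selection fixed the direction for the rule genes and for genes that go with them, so these folds describe the nuclei and test nothing. The other nuclei were no clean reference, as Folr1 stood at 5.60 CPM in those of P301S and at 0.773 in those of WT. Without P301S, which holds most of the selected nuclei, 24 genes were higher and 3 lower. With the 60 nuclei of the choroid cluster alone 111 were higher, 98 of them among the 114, and 33 were lower, 10 of them among the 16. Genes named for this comparison whose fold moved by more than 1.5 times without P301S have that value beside them or here. Car14 and Ace, named below, were not followed in this way. Without P301S Ttr went from 83.7-fold to 282, Folr1 from 73.6 to 299 and Clic6 from 87.8 to 196. Gabra2 went from 0.658 to 0.331 and Npc2 from 2.63 to 3.94. Genes with under 20 observed or expected UMIs without P301S could not be called.

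**Figure D3:**
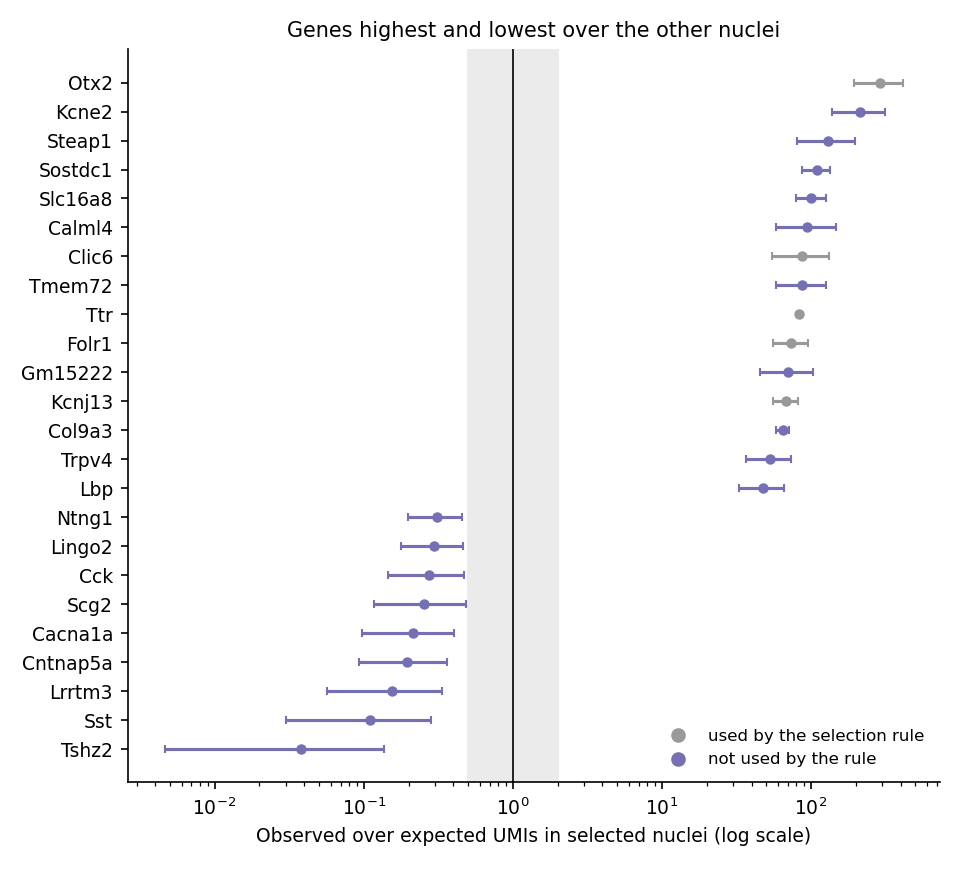
Observed over expected UMIs in selected nuclei on a log axis for the 15 highest and 9 lowest genes that were also 2-fold apart in each library, with exact Poisson intervals; the grey band spans 2-fold either way and grey points are genes of the rule. Otx2 is highest at 290 and Tshz2 lowest at 0.0381.

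Transcription factor genes of the epithelium were rare in counts and high in fold. Otx2 (chromosome 14, 48657677 to 48673819, minus strand) had 4, 22 and 4 UMIs in WT, P301S and P301S/EKO, 290-fold its expectation (196 to 414). Msx1, a homeobox gene, had 6, 29 and 6 UMIs, 44.5-fold (31.9 to 60.4), and Trpm3, a cation channel gene listed with them, 89 UMIs in all, 40.9-fold. Of 16 genes on this list 4 had enough UMIs; 3 were higher and Hes1 was not called (1.60-fold). Without P301S none of the 4 had 20 UMIs, and Msx1 stood at 89.2-fold and Hes1 at 0.441. Without Otx2, a rule gene, 2 of 3 were higher.

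Promoters of the higher genes were searched for TAATCC, the core that OTX2 binds, on both strands (the reverse strand reads GGATTA). RefSeq promoter windows of 300 bases on GRCm38.p6 (250 before and 50 after a gene's start) were found for 74 of the 96 genes higher in each library. The motif was in 11 of their 109 windows (10.1%), and in 7.06% of all 32851 windows, so the share among these genes was near that of promoters at large. A match is a description of letters and not a binding site. The 250 bases before a RefSeq start of 3 genes are shown, with the motif in capitals on whichever strand it fell, since they carry it in the gene of the factor itself and in 2 genes of the epithelium's surface, chosen after the values were seen: Car14, a carbonic anhydrase that lies on the cell surface (chr3:95904686-95904935, minus strand, motif starting 61 bases before the start), Ace, the angiotensin-converting enzyme (chr11:105967698-105967947, plus strand, 27 bases before), and Otx2 (chr14:48665110-48665359, minus strand, 211 bases before). The Otx2 start used here lies inside the gene, whose outermost start on the minus strand is at 48673819.
Car14: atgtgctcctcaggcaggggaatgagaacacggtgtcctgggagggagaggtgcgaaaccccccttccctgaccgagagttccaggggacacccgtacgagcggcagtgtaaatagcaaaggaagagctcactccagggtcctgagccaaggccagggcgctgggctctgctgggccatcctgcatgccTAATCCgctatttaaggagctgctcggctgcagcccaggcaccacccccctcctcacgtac
Ace: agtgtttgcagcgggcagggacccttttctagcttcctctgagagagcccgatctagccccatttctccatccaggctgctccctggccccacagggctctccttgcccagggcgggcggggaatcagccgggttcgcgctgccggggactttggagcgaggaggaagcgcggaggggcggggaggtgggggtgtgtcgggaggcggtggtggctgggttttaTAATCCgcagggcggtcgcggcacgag
Otx2: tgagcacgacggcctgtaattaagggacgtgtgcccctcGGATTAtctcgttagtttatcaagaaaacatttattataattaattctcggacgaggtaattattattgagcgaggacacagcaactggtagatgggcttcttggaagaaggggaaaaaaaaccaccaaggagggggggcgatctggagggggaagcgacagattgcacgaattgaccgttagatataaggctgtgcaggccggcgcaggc
In selected nuclei Car14 had 54 UMIs, 12.3-fold its expectation (9.27 to 16.1), and Ace 21, 18.98-fold (11.8 to 29.0), which was not called in the choroid cluster alone. Neither Car14 nor Ace was called without P301S.

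Ion and water transport genes, which drive fluid secretion, were higher in 11 of the 15 with enough UMIs, and 0 were lower (9 of 13 without rule genes). Their median log2 fold was 2.16, beside 0.02 over all genes tested. Kcne2, a potassium channel subunit gene (chromosome 16, 92292389 to 92298129), had 3, 18 and 5 UMIs in the 3 libraries and 103, 146 and 182 CPM, 213-fold its expectation (139 to 312). Trpv4, a cation channel that responds to osmotic change, was 52.8-fold higher (36.8 to 73.4), and Slc4a2, an anion exchanger gene, 13.3-fold with 379, 592 and 437 CPM. These 3 genes were high in each library. Without P301S Kcne2 stood at 833-fold and Trpv4 at 130-fold, on too few UMIs for a call, and 4 of 5 genes of the list were higher. With the choroid cluster alone this was 9 of 12, and Clic6 (102-fold) was not called. The carbonic anhydrase gene Car12 was 8.65-fold higher (7.01 to 10.6) and 5.51-fold without P301S, while the sodium pump subunit gene Atp1b1 was not called (0.714-fold), with 38, 93 and 36 UMIs.

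Nutrient, vitamin and drug transport genes were higher in 8 of 9 (7 of 8 without Folr1), with a median log2 fold of 3.07. Slc16a8, a lactate carrier gene (chromosome 15, 79251014 to 79254761), had 3, 56 and 18 UMIs and 103, 454 and 656 CPM, 100.4-fold in all (79.2 to 125). Steap1, a membrane protein gene, had 3, 15 and 4 UMIs, 130-fold (81.3 to 196). Slc13a4, a sulfate carrier gene, was 26.9-fold higher, and Slco1a4, a carrier of organic anions, 5.35-fold. Without P301S Slc16a8 was the 1 gene of the list with enough UMIs, at 477-fold, while Steap1 stood at 779-fold and Slc13a4 at 51.0-fold. Steap1 kept its call in 9 of 14 alternatives. Of 8 genes with enough UMIs in the choroid cluster alone 7 were higher.

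Genes listed as secreted or of the cerebrospinal fluid were higher in 14 of 18 (12 of 16 without Ttr and Kl). Their median log2 fold was 5.00, the highest of the lists with more than 5 genes tested. The 14 include genes of membrane or intracellular proteins, Prlr, Tmem72, Calml4, Cab39l and Rdh5, and Prlr is counted again among the receptors. Enpp2, which encodes autotaxin (chromosome 15, 54838901 to 54952892), was found in 70 of 70 selected nuclei and in 16.2% of the other nuclei. It stood at 4439, 4786 and 5101 CPM in WT, P301S and P301S/EKO, levels whose spread was small beside its 29.0-fold difference from the rest (27.1 to 31.0). Col9a3, a collagen gene, had 48, 214 and 86 UMIs, 64.7-fold (58.1 to 71.9), and Sostdc1, a secreted antagonist of BMP and Wnt signals, 12, 63 and 13, 110-fold (87.9 to 135). Calml4 and Tmem72 were 94.9-fold and 87.7-fold higher. Without P301S Col9a3 stood at 121-fold and was still called, while Calml4 (334-fold) and Tmem72 (567-fold) were not, and 8 of 9 genes of the list were higher. The choroid cluster alone gave 12 of 14. Calml4 was not called there (125-fold) and kept its call in 8 of 14 alternatives. Cst3, the gene of cystatin C that many brain cells make, was not called (1.28-fold).

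Receptor, junction and cilium genes were mostly too rare for a call. Of 36 receptor genes 4 had enough UMIs: Prlr, the prolactin receptor, was 44.2-fold (34.3 to 56.2) and Htr2c, the serotonin receptor long known from choroid plexus, 24.9-fold higher (20.8 to 29.5), with 13, 104 and 14 UMIs. Gabra2 and Thra were not called. The cytoskeletal linker gene Ezr was 14.4-fold and Lrriq1 of the cilium list 13.7-fold higher. The junction gene Cldn11 was not called (1.41-fold, and 0.603 without P301S). Without P301S, Htr2c alone of the genes named here as higher had enough UMIs for a call. Krt18 and Cfap126, with 17 and 11 UMIs, fell below the minimum.

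Lists outside transport and secretion held few calls. Of 6 lipoprotein and lipid transport genes with enough UMIs Pltp, a phospholipid transfer gene, was higher (2.99-fold, 2.07 to 4.18), and 5 were not called, Npc2, Apoe, Apod and Lrpap1 among them. Pltp was not called with any 1 of the 3 libraries left out (5.05-fold without P301S), and Npc2 was called in the choroid cluster alone (3.72-fold, against 2.63). Scap was the 1 cholesterol synthesis gene tested and was not called. Ifi27, the 1 interferon gene tested, was 3.47-fold higher (2.90 to 4.12), with 447, 706 and 1130 CPM. Vcam1 and Timp3 of the 6 inflammation genes were higher, at 7.81-fold and 3.46-fold, and neither was called without P301S, where Vcam1 stood at 13.4-fold. Antigen presentation and complement genes (7) and amyloid and tau genes (10) held no call in either direction, and neither did 24 nuclear genes of oxidative phosphorylation, whose median log2 fold was 0.60. In the choroid cluster alone 2 of 17 of the latter were higher, Atp5e (3.64-fold, against 2.53) and Atp5g1 (3.18-fold, against 2.51). Atp5g1 stayed uncalled in 7 of 14 alternatives. Scaling by the median of gene ratios and equal weight per nucleus were among those that called it higher.

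Lbp, which encodes lipopolysaccharide-binding protein, and the noncoding Gm15222 completed the 15 highest genes, at 47.6-fold and 70.2-fold, and neither was called without P301S (57.6-fold and 201-fold). Most named genes lower in selected nuclei are known from neurons. Tshz2, a transcription factor gene, had 1, 1 and 0 UMIs where 52.5 were expected over the 3 libraries (fold 0.0381, 0.00462 to 0.138), and the interneuron peptide gene Sst had 1, 3 and 0 (0.110). Lrrtm3, Cntnap5a, Cacna1a, Scg2, Cck, Lingo2 and Ntng1 lay between 0.154 and 0.309. Without P301S, Tshz2 and Ntng1 of these 9 were still called, and Cntnap5a stood at 0.362 and Cacna1a at 0.338. Scg2 (0.326) and Lingo2 (0.347) were not called in the choroid cluster alone, and Scg2 kept its call in 7 of 14 alternatives. The list of neuronal transcripts had a median log2 fold of -0.96, with Meg3 (0.390) and Snhg11 (0.397) lower and 12 of 14 not called. Meg3 and Snhg11 were not called without P301S (0.490 and 0.515), and in the choroid cluster alone 5 of 14 were lower. Meg3, though lower, had a UMI in 69 of the 70 nuclei. In 12 nuclei the 20 neuronal transcripts made up more than 2.95% of UMIs, a limit set from the median of the clusters without a name (5.91%). Of these 12 nuclei of high neuronal share 5 were among the 10 of WT.

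P301S was set beside WT to see whether the epithelial nuclei themselves differ with the tau transgene. A gene was called here when its exact conditional binomial interval lay beyond 1.5-fold, on at least 20 UMIs over both libraries. Of 1056 genes 17 were higher (1.61%) and 15 lower (1.42%). No gene of the ion (12 tested), nutrient (6), secretion (15) or transcription factor (4) lists was among them. The shares over all genes leave room for few calls in lists this short, so this describes the lists only. Kl of the secretion list was called higher in the choroid cluster alone. Of the lipid transport list 2 genes were higher, Apoe and Apod. Ptgds, on none of the lists and named after its values were seen, was also higher, with 288 UMIs against 33 in the choroid cluster (log2 1.63). The part of other cell types in it was not tested. In the choroid cluster alone 10 of the 17 and 13 of the 15 were called the same way. Scaled by the median of gene ratios in place of total UMIs, the median log2 ratio went from 0.03 to 0.44 and the calls became 37 higher and 4 lower.

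Complement and antigen presentation genes held 5 of the 17 higher genes, out of 7 tested on that list. C1qa, a complement gene of microglia (chromosome 4, 136895917 to 136898803), had 71 UMIs in the 46 P301S nuclei and 0 in the 10 of WT, at least 5.58-fold higher (against 3 UMIs in WT). In the other nuclei it was 6.30-fold higher, at 506 against 80.4 CPM. Of the 10 microglial markers 10 had UMIs in P301S selected nuclei and 3 in those of WT, at 1630 against 138 CPM summed. In the 39 P301S nuclei of the choroid cluster C1qa had 15 UMIs and was not called; the part of microglial RNA in this result was not tested. H2-D1, a class I antigen presentation gene, had 47 UMIs against 0, at least 3.69-fold higher, and in the cluster 21 against 0, still called. C4b had 50 against 1 (11.8-fold, 2.02 to 475), and 11.96-fold in the other nuclei. In the cluster C4b had 21 against 1 and was not called, and of the list 2 genes had enough UMIs there and H2-D1 was called.

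Apoe, made by astrocytes and other cells and needed for lipoprotein transport, stood at 4060 CPM in WT selected nuclei and 9239 in those of P301S, a ratio of 2.28 (1.88 to 2.77). In the other nuclei the ratio was 3.31. With equal weight per nucleus, and with the nuclei of high neuronal share left out (5 in WT and 5 in P301S), it was no longer called (log2 0.51 with them left out, against 1.18). Vtn (vitronectin) had 45 UMIs in P301S and 0 in WT, of which 21 came from 1 nucleus, and Ctss (a protease of microglia) and Brinp3 had 38 and 36 against 0. In the choroid cluster Vtn was still called, and Ctss and Brinp3, with 7 and 5 UMIs there, were not. Fibroblast markers summed to 535 CPM in P301S selected nuclei and mural cell markers, which include Vtn, to 414, and both were at 0 in WT. Most of the mural sum is Vtn itself, so that sum is no separate measure beside Vtn. The part of fibroblasts and mural cells in these values was not tested. Without the nuclei of high neuronal share, which leaves 5 WT and 41 P301S nuclei, 1 gene was higher (the noncoding Gm26917) and 5 were lower (Opcml, Ank3, Ldhb, mt-Co3 and Ttr).

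The 15 lower genes included the glutamate receptor genes Grin2b, Gria2 and Grm5, chosen for mention after their values were seen. Opcml, an adhesion gene of neurons, stood at 1411 CPM in WT and 349 in P301S, 4.04-fold lower (2.57 to 6.35), and Tenm2, of the teneurins, at 1376 and 341. Ndufc2 had 14 UMIs in WT and 9 in P301S, 6.60-fold lower. Mapk8ip3 and 9530059O14Rik were 3.89-fold and 3.92-fold lower, were not called in the choroid cluster alone, and kept their call in 2 and 3 of 9 alternatives. The 20 neuronal transcripts summed to 29834 CPM in WT selected nuclei and 18981 in P301S, and the part of neuronal RNA in the lower genes was not tested. Of 11 neuronal transcripts tested 1 was lower. Among the rule genes Ttr stood at a log2 ratio of -0.35 in selected nuclei and at 0.17 in those of the choroid cluster, neither of which was called, while in the other nuclei it was 3.56-fold higher. Kl was called higher in the choroid cluster alone (log2 1.90, against 1.43). Ttr was called lower without the nuclei of high neuronal share (log2 -1.09). The rule sets minimum counts on these genes and depth differed between the libraries, so the ratios of rule genes are a description of the selection. Prnp (4 and 42 UMIs) and Mapt (6 and 28) were not called either.

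**Figure D4:**
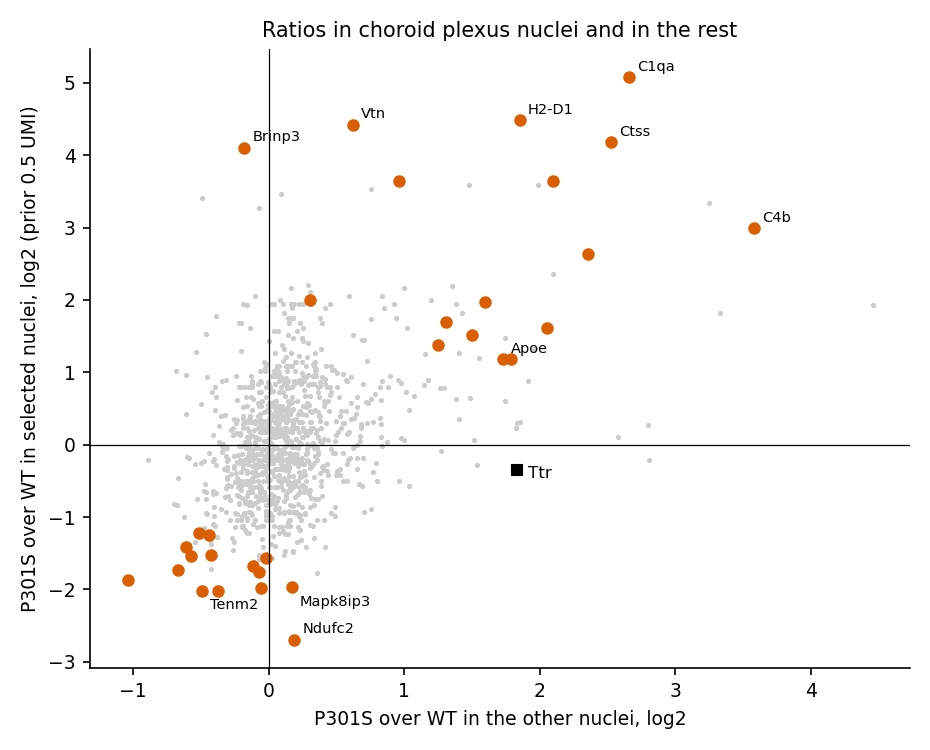
Log2 ratio of P301S over WT in selected nuclei against the same ratio in the other nuclei, for 1056 genes; orange points were called and the black square is Ttr. C1qa, C4b and Apoe are higher on both axes, while Ttr is higher on the axis of the other nuclei alone.

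P301S/EKO was set beside P301S, with which the comparison above shares the P301S library. Of 1075 genes 7 were higher (0.651%) and 9 lower (0.837%). In the choroid cluster alone 2 of the 7 and 4 of the 9 were called the same way. Ptgds was among the 4, with 26 UMIs against 288 there (log2 -1.16). Apoe (chromosome 7, 19696109 to 19699188) had 0 UMIs in the 14 P301S/EKO nuclei against 1139, at least 84.5-fold lower, and the other nuclei of P301S/EKO held 20.7 CPM. This is the gene the knock-out targets. C4b had 0 UMIs against 50 and was at least 3.71-fold lower, and 0 against 21 in the choroid cluster, where it was not called. Slc7a11, a cystine carrier gene, had 0 against 32, of which 25 came from 1 nucleus. With equal weight per nucleus C4b, Slc7a11 and Eif2s3y were not called.

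Eif2s3y, on the Y chromosome, had 1 UMI against 61 and was 13.6-fold lower (2.35 to 545). In the other nuclei it stood at 267 against 513 CPM. Slc38a2 had 1 UMI against 40, and 0 against 18 in the choroid cluster, where it was not called. Lrtm1, Ndufa10, Atp2b1, Chst1 and Fam19a1 were higher, at ratios of 6.99, 4.49, 3.49, 3.44 and 3.24 on 10 to 35 UMIs. Atp2b1 kept its call in 8 of 9 alternatives, with 20 against 13 UMIs in the choroid cluster. The other 4 genes were not called in the cluster, where they had 5 to 11 UMIs in P301S/EKO, nor with equal weight per nucleus, and Chst1 kept its call in 2 of 9 alternatives. Fam19a1 turned lower with the nuclei of high neuronal share left out (log2 -0.55, against 1.71). Ttr was not called, at a log2 ratio of 0.59, but was called higher without the nuclei of high neuronal share (0.70). The rule sets a minimum on Ttr, so these 2 ratios are a description of the selection. By the median of gene ratios the counts became 2 higher and 34 lower, and the median log2 ratio went from 0.08 to -0.40.

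P301S/EKO against WT, which shares a library with each comparison above, had 212 genes with enough UMIs; 3 were higher (1.42%) and 3 lower (1.42%). Slc16a8 had 18 UMIs against 3 (6.35-fold, 1.85 to 33.7), and 5.86-fold in the other nuclei at 1.36 against 0.232 CPM. Ntm, an adhesion gene, was 3.35-fold and Cst3 2.29-fold higher. Apoe had 0 UMIs against 118, at least 37.1-fold lower, and Tenm2 was 3.43-fold lower. In the choroid cluster alone Slc16a8 had 16 against 3 UMIs (log2 3.05), under the minimum of 20, and Ntm (log2 1.38) and Cst3 (0.31) were not called. Apoe and Tenm2 were called there, and so was Ttr (log2 0.75, against 0.24 in all selected nuclei). For Ttr, on which the rule sets a minimum, this is a description of the selection.

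Ttr in nuclei outside the epithelium differed between libraries far more than most genes did. In nuclei that were not selected it stood at 297 CPM in WT (288 to 307), 9.99 in EKO (8.08 to 12.2), 1058 in P301S (1035 to 1082) and 304 in P301S/EKO (293 to 315). At least 1 Ttr UMI was found in 41.9%, 1.45%, 83.5% and 31.7% of these nuclei. With each nucleus thinned to 1000 UMIs the shares were 23.5%, 0.909%, 57.7% and 20.5%, leaving out 129, 1060, 0 and 1242 shallower nuclei. The order of WT and P301S/EKO turned between CPM and shares, and their CPM intervals overlapped; EKO was lowest and P301S highest on each measure. Without the cluster nuclei that the rule missed, the levels were 956 CPM in P301S, 280 in WT, 247 in P301S/EKO and 9.99 in EKO. WT then lay above P301S/EKO in CPM as in shares, with intervals that did not overlap (271 to 290 and 237 to 257).

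Ttr outside was highest in P301S, where the share of selected nuclei was highest, and lowest in EKO, where it was 0. WT and P301S/EKO stood in reverse order, at 0.182% and 0.251% in share and at 280 and 247 CPM outside. The intervals of these 2 shares overlapped. Among 9307 genes with at least 400 UMIs over the libraries, Ttr outside the cluster ranked 3 from the top for WT over EKO (28.1-fold, 22.9 to 34.8), behind Apoe and Hspb7. It ranked 2 for P301S over EKO (95.8-fold, 78.2 to 119) and 1 for P301S/EKO over EKO (24.7-fold, 20.2 to 30.7). The library without a selected nucleus was thus the lowest by a wide margin, and the one with most was the highest. Between P301S and WT the sizes differed: Ttr outside was 3.41-fold (3.28 to 3.55) and the share 8.63-fold, whose interval starts at 4.30. Where P301S/EKO over P301S was 0.160 in share (0.0813 to 0.296), Ttr outside was 0.258 (0.247 to 0.271), inside that interval. Where P301S/EKO over WT was 1.38 in share, with an interval spanning 1, Ttr outside was 0.881 (0.836 to 0.928), also inside the interval of the share. With 4 libraries no correlation was computed.

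Put as counts, WT held 3628 Ttr UMIs outside the selection and the cluster for 2479 inside, 1.46 to 1. P301S held 7325 for 8348 (0.877) and P301S/EKO 2364 for 3077 (0.768). Between 43.4% and 59.4% of all Ttr UMIs of these 3 libraries thus lay outside. All 95 Ttr UMIs of EKO did, at most 5 in 1 nucleus.

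Within WT, P301S and P301S/EKO Ttr varied between classes by 1.76-fold to 2.23-fold. In WT it ran from 233 CPM in oligodendrocyte-like to 410 in endothelial cell-like nuclei. In P301S it ran from 815 in dentate granule neuron-like to 1665 in endothelial cell-like nuclei, and in P301S/EKO from 212 in inhibitory neuron-like to 474 in astrocyte-like nuclei. Some of the highest values rest on 1 nucleus: it held 73 of the 195 Ttr UMIs of endothelial cell-like nuclei in WT, 123 of 465 in P301S, and 40 of 166 of the astrocyte-like in P301S/EKO. With each class taken without its nucleus of most Ttr, those values were 257, 1230.5 and 361 CPM. The ranges were then 800.1 to 1275 CPM in P301S, 230.2 to 334 in WT and 206 to 376 in P301S/EKO, or 1.45-fold to 1.82-fold, with astrocyte-like nuclei highest in P301S and WT and endothelial cell-like in P301S/EKO. Each of the 8 classes was higher in P301S than in WT, and higher in WT than in EKO, also without those nuclei. EKO ranged more, from 3.13 CPM on 1 UMI in astrocyte-like to 102 on 16 UMIs in 118 endothelial cell-like nuclei. Inhibitory, dentate granule and unnamed clusters together stood at 855 CPM in P301S, 271 in WT, 229 in P301S/EKO and 8.20 in EKO.

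**Figure D5:**
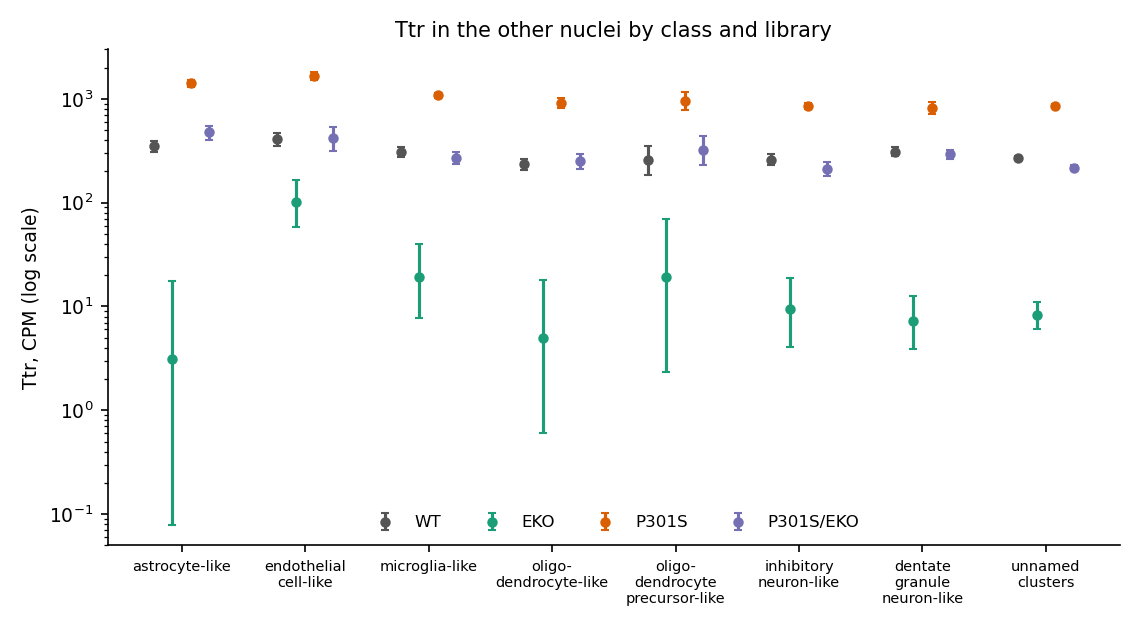
Ttr in nuclei that were not selected, by class and library, in CPM on a log axis with exact Poisson intervals. P301S lies highest and EKO lowest in each of the 8 classes, and the EKO values are the most spread (3.13 to 102).

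Ttr per nucleus rose less than depth. With the other nuclei put in 4 groups by depth, the shallowest in P301S had a median of 1321 UMIs and a mean of 1.84 Ttr UMIs, and the deepest 4064.5 and 3.99. As a level, that is 1404 CPM in the shallowest and 815 in the deepest. WT stood at 424 and 227 CPM and P301S/EKO at 409 and 183 in the same groups.

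Other transcripts of the epithelium, 17 genes in all, were set beside Ttr outside the cluster. By fold over EKO most of them did not move as Ttr did. This holds for the 17 alone. Kcne2, Sostdc1, Slc16a8 and Tmem72, named above as higher in selected nuclei, were not among them. EKO, without a selected nucleus, held Tmem108 at 519 CPM, Neat1 at 253, Car12 at 114, Enpp2 at 76.0 and Ttr at 9.99. For genes this high in EKO, neither the fold nor the amount per 1000 Ttr UMIs shows whether they accompany Ttr. From EKO to P301S, where Ttr outside was 95.8-fold higher, 14 of the 17 lay between 0.433-fold (Car12, 0.385 to 0.488) and 3.06-fold (Neat1). Enpp2 was 2.32-fold higher (2.12 to 2.54), Kcnj13 2.14-fold and Col9a3 1.98-fold. In WT Enpp2 stood at 375 per 1000 Ttr UMIs outside against 57.1 in selected nuclei, Kcnj13 at 20.9 against 4.87, and Car12 at 282 against 3.54. The other 3 were Folr1, Clic6 and Slc4a5, which had 11 UMIs in P301S and 0 in EKO. Folr1 had 10, 4, 42 and 11 UMIs there (WT first, then EKO, P301S and P301S/EKO), 13.04-fold higher in P301S than in EKO (4.73 to 50.1). Per 1000 Ttr UMIs that made 2.76, 5.73 and 4.65 in WT, P301S and P301S/EKO, beside 4.42, 5.03 and 2.77 in selected nuclei. Clic6 had 5, 1, 13 and 5 UMIs outside, 1.38, 1.77 and 2.12 per 1000 Ttr UMIs against 0.885, 2.25 and 1.19 in selected nuclei. The rule used Ttr and both genes, so the values in selected nuclei are a description. Otx2 did not move with Ttr: it had 8, 9, 4 and 1 UMIs outside, and in P301S 0.546 per 1000 Ttr UMIs against 2.91 inside. Kl, at 7.89, 9.35, 9.27 and 8.26 CPM outside, was about as high in EKO as elsewhere. The counts of Folr1, Clic6 and Otx2 are small, and the part of free RNA in the Ttr of other nuclei was not tested.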

How the data were processed

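Nuclei of pooled frozen hippocampi were measured as 1 library per genotype. The deposited files hold raw UMI counts per gene and barcode (27998 genes), made with Cell Ranger on mm10 and Seurat per the submitters' processing notes. Neither their versions nor the treatment of intronic reads was found: not given in the sources used here. Members and gene lists were chosen with earlier results of these data known. Depth ran from 8369762 to 14251675 UMIs a library, and no genotype has a second library, so no test was run.

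Levels are summed counts per 1000000 UMIs. Folds over other nuclei are observed over library-matched expected UMIs with exact Poisson intervals. Ratios between genotypes have exact conditional binomial intervals; log2 ratios add 0.5 UMI to each side. Lower bounds on a fold set 3 UMIs for a summed count of 0. Both procedures were tested on simulated Poisson counts of the library sums, without variation between nuclei. That test cannot give the error rate of calls that rest on a few nuclei.

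Kept barcodes were clustered with scanpy 1.11.5 and igraph 0.11.9 (2000 variable genes, 30 components, 15 neighbours, Leiden resolution 1) without the rule genes, Apoe, Prnp, Mapt and mitochondrial genes, and clusters were named from 14 marker sets. No cluster was named excitatory, so the neuronal share limit used the unnamed clusters. Scrublet's own threshold called 2 of 19475 barcodes and was not used; doublets stayed in, and removing the highest scores (0.8% per 1000 barcodes) was an alternative.

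Named genes are the rule genes, Apoe, Prnp and Mapt, the 15 highest and up to 10 lowest folds that were also 2-fold in each library (9 met this), the 5 highest and 5 lowest called ratios of a genotype comparison, and of each list up to 4 genes by fold and 4 by UMIs. Some genes that the rule names are not reported here. Alternatives changed the rule's limits, depth, scaling, weights, minimum counts, doublets and libraries. Those on the choroid cluster, on the error of the other nuclei and on single nuclei high in Ttr were chosen after seeing the data. Positions are from GENCODE vM21 and promoters from RefSeq, both on GRCm38, the assembly of mm10. Python 3.11.15, numpy 2.4.6, scipy 1.17.1 and pandas 2.3.3 were used.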

Additional observations from a re-analysis of the deposited data

Results flagged for a closer look

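Barcodes above the mitochondrial limit of 5% entered no comparison, and some of them met the rule on Ttr and the 6 genes. There were 4 such barcodes in WT, 4 in P301S and 4 in P301S/EKO, among 640, 222 and 1191 left out, and 0 in EKO among 522. Their mitochondrial share was 6.61% to 17.7% in WT, 5.09% to 7.03% in P301S and 8.35% to 19.7% in P301S/EKO. In the rest of the barcodes left out Ttr stood at 1621 CPM in P301S, 685 in P301S/EKO, 498 in WT and 29.9 in EKO.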

How the results depend on the processing

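No paired analysis was possible because each genotype has 1 library and the labels carry no shared replicate numbers. Of 142 alternative values for the comparisons 95 stayed close and 47 moved; of 1604 for single genes or classes of nuclei 1419 kept their call or stayed close, 8 moved, 151 lost a call, 25 gained one and 1 turned. The last was Fam19a1 for P301S/EKO over P301S (log2 -0.55 with nuclei of high neuronal share left out).

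Selected nuclei numbered 22 in WT and 8 in EKO with no Ttr minimum, 5 in WT and 8 in P301S/EKO at 2% mitochondrial UMIs, 7 in P301S/EKO with 3 UMIs of the 6 genes and 9 with 1100 UMIs. The nuclei that came in with no Ttr minimum all lay outside the choroid cluster. Genes higher than in other nuclei numbered 470 with no count minimum, and 24 to 98 with 1 library left out. Genes lower numbered 3 to 19 with 1 library left out, 91 with equal weights, 78 without nuclei of high neuronal share, 33 for the cluster's selected nuclei and 53 for the whole cluster.

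For P301S over WT, higher calls numbered 37 by median of ratios and 1 without nuclei of high neuronal share. Lower calls numbered 4, 5, 47 with no minimum, 27 in the cluster's selected nuclei and 30 in the whole cluster. For P301S/EKO over P301S, higher calls numbered 2 by median of ratios, 4 with equal weights, 30 with no minimum, 11 without high Scrublet scores and 4 in the cluster; lower calls numbered 34 by median of ratios. For P301S/EKO over WT, higher calls numbered 13 with no minimum, 1 without nuclei of high neuronal share, 5 in the cluster's selected nuclei and 9 in the whole cluster. Lower calls numbered 6 with equal weights, 8 with no minimum, 1 at 50 Ttr UMIs, 1 without high Scrublet scores, 5 and 11. The causes were not tested.

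Ttr in other nuclei of WT, P301S and P301S/EKO stood at 285, 958 and 285 CPM without UMIs of the 6 genes, 271, 855 and 229 in the inhibitory, dentate granule and unnamed clusters, and 263, 848 and 237 with under 20 Ttr UMIs. With 1100 UMIs it stood at 287 in WT and 236 in P301S/EKO. With 10 to 46 nuclei a library, counts limit each genotype ratio.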
